A study of Mus musculus with 7 samples.

Results

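Vomeronasal, taste and trace amine receptors are G protein-coupled receptors of chemosensory cells. Their genes were used here as genes expected to be silent in fat, so that their values show what each array reads where little or no transcript is present. Members were the genes whose symbol starts with Vmn1r, Vmn2r, Tas1r, Tas2r or Taar, among probes that the platform annotation pairs with exactly 1 symbol. There were 51 such genes, each with 1 probe, of 9294 genes in all. They comprise 35 Vmn1r, 8 Vmn2r, 6 Taar and 2 Tas2r genes, and 11 of the 51 carry a pseudogene symbol. Tas1r1, Tas1r2, Tas1r3 and Taar1 were not analysed here.

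The arrays measured total RNA of paracardial fat (pCF), which lies beside the heart, in 4 samples and of intra-abdominal fat (iVF) in 3 samples. All came from wild-type (WT) male mice of a strain given as C57, and the labels name no treatment. The replicates are labelled as biological, but the labels give neither an age nor the animal behind each sample. Every p below thus sets a depot difference against the scatter among these 7 samples only, whose relation to single animals is unknown. The authors deposited 1 log2 value per probe and array. The median over all genes was between 5.96 and 6.46 on the 7 arrays. Paracardial array 4 and intra-abdominal array 3 reached a ceiling of 19.93, while the ceiling of the other 5 arrays lay between 19.81 and 19.84. These 2 arrays are called the higher-ceiling set and the other 5 the lower-ceiling set.

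V1R receptors, encoded by Vmn1r genes, and V2R receptors, encoded by Vmn2r genes, are carried by sensory neurons of the vomeronasal organ, which detects pheromones and other social odours. V1R neurons signal through the G protein subunit encoded by Gnai2, and V2R neurons through the one encoded by Gnao1. Tas2r genes encode the bitter taste receptors of taste cells and of chemosensory tuft cells in other epithelia. Taar genes encode trace amine-associated receptors, which in mice, apart from Taar1, serve as olfactory receptors for volatile amines. The Vmn1r, Vmn2r and Taar genes lie in clusters that hold some close duplicates among more divergent genes, and probes of close duplicates can share signal.

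The receptor genes lay low on every array. In paracardial fat their medians on arrays 1 to 4 were 4.83, 4.67, 4.53 and 4.14, and in intra-abdominal fat, on arrays 1 to 3, they were 4.81, 4.96 and 4.43. Between 5.91% and 18.6% of all genes lay below that median on the same array. Single receptor values ran from 3.49 (Vmn1r239-ps, paracardial array 2) to 6.93 (Taar8c, intra-abdominal array 2), and 354 of the 357 values were under 6. Within an array the SD over the 51 genes was 0.31 to 0.57.

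**Figure D1:**
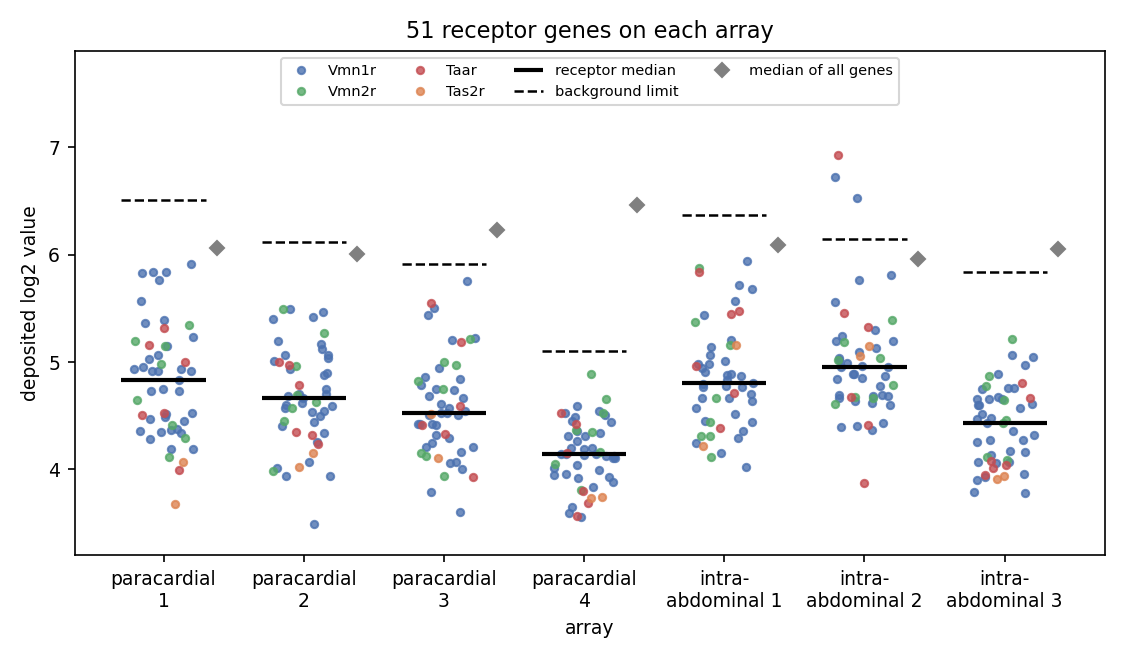
Deposited log2 values of the 51 receptor genes on each of the 7 arrays, coloured by family. Solid lines give the receptor median, dashed lines the background limit (median plus 3 scaled median absolute deviations) and grey diamonds the median of all genes. Receptor medians run from 4.14 to 4.96, and 3 points lie above the dashed line, all on intra-abdominal array 2.

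The receptor median did not follow the median of all genes. Paracardial array 4 had the lowest receptor median, 4.14, and the highest median of all genes, 6.46. Intra-abdominal array 2 had the highest receptor median, 4.96, and the lowest median of all genes, 5.96. The gap between both medians was therefore 2.32 on the first of these arrays and 1.01 on the second. The low receptor medians of paracardial array 4 and intra-abdominal array 3 go with the lowest 5th percentiles over all genes, 4.01 and 3.99, against 4.42 to 4.48 on the lower-ceiling set. Of the 51 genes, 32 had their lowest value on paracardial array 4 and 10 on intra-abdominal array 3. None had its highest value on either of these arrays.

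A background limit was set on each array at the receptor median plus 3 scaled median absolute deviations. The limits were 6.51, 6.12, 5.92 and 5.10 for the paracardial arrays in order of their number, and 6.37, 6.15 and 5.84 for the intra-abdominal arrays. No receptor gene was above it on all 4 paracardial arrays, where 40.5% of all genes were, and none on all 3 intra-abdominal arrays, where 38.3% of all genes were. On at least 1 array 3 receptor genes were above it, against 77.1% of all genes. The limit comes from the receptor genes themselves, so a low count above it follows in part from its construction. Olfactory receptors, the odour receptors of the main nose, gave a separate set of 135 genes with symbols starting with Olfr. Their medians were 4.83, 4.78, 4.57 and 4.14 on the paracardial arrays and 4.63, 4.88 and 4.39 on the intra-abdominal arrays, close to the receptor medians, and 126 of the 135 were within the limit on all 7 arrays. Of the 9 above the limit on at least 1 array, 2 were above it on all 7, Olfr1055 (7.47 to 9.10) and Olfr1346 (6.66 to 8.74).

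Taar8c, Vmn1r-ps111 and Vmn1r208 were the 3 receptor genes above the limit on any array. Taar8c, an olfactory amine receptor gene, measured 5.16, 4.97, 5.18 and 4.42 on the paracardial arrays and 5.84, 6.93 and 4.81 on the intra-abdominal arrays. Vmn1r-ps111, a pseudogene, measured 4.92, 5.06, 5.21 and 4.14 against 5.72, 6.73 and 4.65. Vmn1r208, its V1R neighbour with 3 genes between them in RefSeq, measured 5.39, 5.17, 5.76 and 4.12 against 5.94, 6.53 and 5.05. All 3 peaked on intra-abdominal array 2 and were lowest on paracardial array 4, and in each the depots overlapped. Their excess over the limit on intra-abdominal array 2 was 0.78, 0.58 and 0.38, and the nearest values under a limit were 0.16 below (Vmn1r208, paracardial array 3) and 0.22 below (Vmn2r-ps131, paracardial array 4). Taar8c and Vmn1r-ps111 belong to different families and chromosomes, yet their values were within 0.28 of each other on all 7 arrays.

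By family, the mean over all 7 arrays had a median of 4.69 for the 6 Taar genes, 4.25 for the 2 Tas2r genes, 4.63 for the 35 Vmn1r genes and 4.76 for the 8 Vmn2r genes. These medians differ by less than the range inside the Vmn1r family, 4.26 (Vmn1r180) to 5.42 (Vmn1r208). Among the Taar genes the mean ran from 4.06 for Taar7d to 5.33 for Taar8c. Vmn2r-ps12 (5.18) and Vmn2r63 (4.16) bounded the Vmn2r family. Pseudogene symbols had a median of 4.69 over 11 genes and the other symbols one of 4.60 over 40 genes. By these medians the intact genes did not read higher than the pseudogenes. Levels of different probes are set side by side only as background readings, since a probe's own sequence contributes to its level.

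The bitter receptor genes had the lowest family median. Tas2r117 measured 3.68, 4.02, 4.52 and 3.74 on the paracardial arrays and 4.22, 5.15 and 3.91 on the intra-abdominal arrays. Tas2r118, listed in RefSeq with the synonym Tas2r16, measured 4.07, 4.15, 4.10 and 3.74 against 5.16, 5.06 and 3.94. Both were highest on an intra-abdominal array of the lower-ceiling set, and on intra-abdominal array 3 both lay inside the paracardial range. Both stayed within the limit on all 7 arrays.

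The Taar7 genes, whose receptors are known in rodents to respond to tertiary amines, all had their lowest value on paracardial array 4, as 32 of the 51 receptor genes did. Taar7e ranged from 3.80 on paracardial array 4 to 5.55 on paracardial array 3. Taar7b was highest on paracardial array 1, at 5.31, and lowest on paracardial array 4, at 4.53. Taar7d and Taar7f ranged from 3.57 to 4.51 and from 3.69 to 4.96. Taar8b, the RefSeq neighbour of Taar8c, ran from 4.04 to 5.45 and was highest on intra-abdominal array 1.

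The start-site windows of the V1R genes show how alike the copies are, and 2 pairs of them are identical there. A window of 300 bases (250 before the start to 50 after it, RefSeq, GRCm38.p6) was matched for 34 of the 51 genes. Between 2 of these windows the median was 138 identical bases. Vmn1r112 (chr7:20770935-20771234, plus strand) and Vmn1r157 (chr7:22761447-22761746, plus strand) hold the same 300 bases. So do Vmn1r123 (chr7:21161935-21162234, plus strand) and Vmn1r160 (chr7:22870974-22871273, plus strand). Capitals mark the 20 bases at which one pair differs from the other.
Vmn1r112 and Vmn1r157: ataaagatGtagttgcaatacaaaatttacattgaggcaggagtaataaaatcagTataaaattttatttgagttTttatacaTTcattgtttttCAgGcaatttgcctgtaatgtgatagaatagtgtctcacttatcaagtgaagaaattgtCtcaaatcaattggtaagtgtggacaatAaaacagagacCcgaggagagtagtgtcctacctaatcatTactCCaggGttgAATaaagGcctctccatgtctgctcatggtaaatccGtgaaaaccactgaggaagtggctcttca
Vmn1r123 and Vmn1r160: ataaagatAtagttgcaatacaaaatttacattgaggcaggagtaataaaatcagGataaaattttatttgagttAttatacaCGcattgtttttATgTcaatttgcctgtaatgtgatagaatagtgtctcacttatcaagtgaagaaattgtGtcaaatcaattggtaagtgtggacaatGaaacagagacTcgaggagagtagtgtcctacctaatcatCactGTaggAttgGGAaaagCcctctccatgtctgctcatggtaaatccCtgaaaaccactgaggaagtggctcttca

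Genes with identical windows also had closely similar values. Vmn1r112 measured 5.77, 4.75, 4.86 and 4.31 on the paracardial arrays and 4.98, 4.86 and 4.76 on the intra-abdominal arrays, and Vmn1r157 measured 5.57, 4.54, 4.74 and 4.13 against 4.77, 4.41 and 4.32. Vmn1r123 measured 5.84, 4.26, 4.07 and 4.45 against 4.57, 5.19 and 4.60, and Vmn1r160 measured 5.84, 3.93, 3.79 and 4.20 against 4.45, 4.70 and 4.27. All 4 genes had their highest value on paracardial array 1. Across the 7 arrays, with each array's receptor median removed, Pearson's r was 0.95 for the first pair and 0.97 for the second, as a description over points that share arrays. The median of that r over all 561 pairs with windows was -0.10. Among the 488 pairs under 60% identity that r reached 0.95 (Taar8b with Tas2r118), so a high r was not particular to identical windows. Over the 25 pairs of 8 genes with at least 90% identity, r ran from -0.49 to 0.97 with a median of -0.12, so a similar window did not always go with similar values. The windows are sequence around the start site and not the probes, whose sequences were not used here. Of the 3 probes annotated to several V1R genes, 2 name the same 5 genes and hold the same 7 values, from 3.88 to 5.09.

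**Figure D2:**
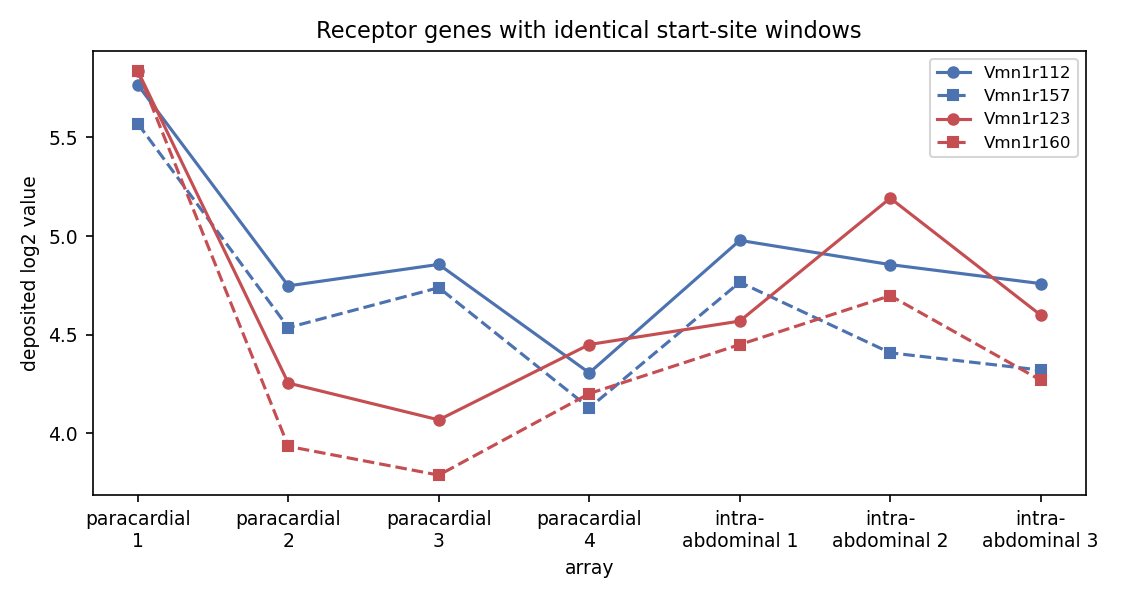
Deposited log2 values (y axis) of 4 V1R genes on the 7 arrays (x axis), with one colour for each pair that shares its start-site window and lines that only join the points of a gene. The members of a pair rise and fall together, and all 4 are highest on paracardial array 1, at 5.57 to 5.84.

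Vmn1r117 and Vmn1r118, which are direct neighbours in RefSeq, were the closest pair of the set. Their values were within 0.15 of each other on all 7 arrays, with highest values of 5.49 and 5.40 on paracardial array 2. Over the 38 pairs with at most 5 genes between them in RefSeq, the mean difference between the values of a pair had a median of 0.47, and it was 0.48 over the other 1237 pairs. Pearson's r over the 7 arrays had a median of 0.59 in the former and 0.42 in the latter, as a description over shared arrays.

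Between the depots, no receptor gene passed the test. At an adjusted p under 0.05 (limma over all genes, Benjamini-Hochberg) 0 of the 51 were called, against 9.16% of all genes, of which 6.25% had the higher level in paracardial fat and 2.91% the lower one. The lowest adjusted p was 0.178. At an unadjusted p under 0.05 the limma test gave 1 receptor gene, against 24.4% of all genes. The depots did not overlap in 1 receptor gene, or 1.96%, with the paracardial values higher. Over all genes the share was 26.7%, made up of 18% with paracardial values higher and 8.78% with them lower. In bulk samples fewer cells of a type and less RNA per cell cannot be told apart. The olfactory receptors gave similar counts, with 0 of 135 called by limma, 3 at an unadjusted p under 0.05 and no overlap in 4.

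The differences were small and more often negative. Their median was -0.17 over the 51 genes, where that over all genes was 0.13, and 37 of 51 (72.5%) were negative, against 39.4% of all genes and 60% of the olfactory receptors. With an array left out, the negative differences numbered from 27 without paracardial array 4 to 43 without paracardial array 1. They numbered 30 without intra-abdominal array 2 and 41 without intra-abdominal array 3. Averaged over its 4 arrays, paracardial fat had a receptor median of 4.54 ± 0.30 (SD, n = 4). The intra-abdominal average over 3 arrays was 4.73 ± 0.27 (SD, n = 3). That difference of -0.19 is smaller than the spread between arrays of a depot. It was -0.21 within the lower-ceiling set and -0.29 within the higher-ceiling set, which has no replicates in either depot. The 95% intervals were wide, with a median width of ± 0.80, and for 22 of the 51 genes the interval lay inside -1 to 1. For the other 29 the interval reached -1 or 1, so a change of that size is not excluded.

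**Figure D3:**
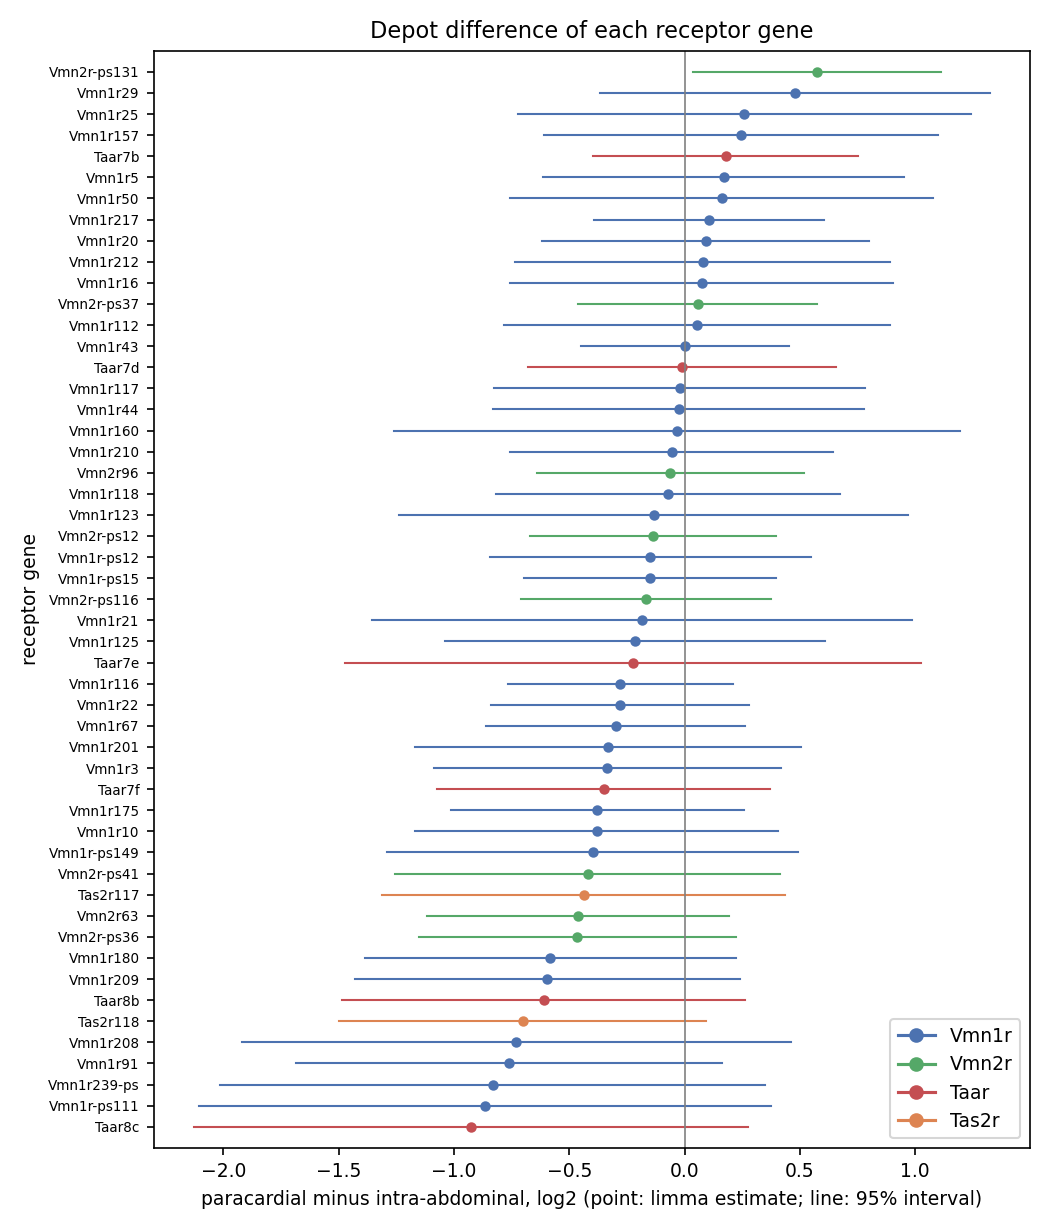
Difference of each receptor gene between the depots (x axis, paracardial minus intra-abdominal, log2; points are limma estimates and lines 95% intervals), ordered by size and coloured by family. Estimates run from -0.93 (Taar8c) to 0.57 (Vmn2r-ps131), and 1 interval, that of Vmn2r-ps131, does not cross 0.

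Vmn2r-ps131, a V2R pseudogene, had the largest positive difference and was the gene whose depots did not overlap. It measured 5.20, 5.50, 4.97 and 4.89 on the paracardial arrays and 4.31, 4.61 and 4.77 on the intra-abdominal arrays. Its difference was 0.57 with a standard error of 0.23 and a limma adjusted p of 0.178. Permuting its arrays over all 35 splits (exact, two-sided) gave p = 0.0571, the smallest that this test can return here. Any gene whose depots do not overlap gets this p, so it adds nothing to the lack of overlap. Within the lower-ceiling set the difference was 0.76 and within the higher-ceiling set 0.12. The latter is paracardial array 4 against intra-abdominal array 3, without replicates. All 7 values were within the background limit.

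Vmn1r29 and Vmn1r25, both V1R genes, followed with 0.48 ± 0.35 (SE, limma adjusted p = 0.478) and 0.26 ± 0.41 (0.757). The largest negative values belonged to the genes already described on intra-abdominal array 2. Taar8c differed by -0.93 ± 0.50 (SE, limma adjusted p = 0.328) and Vmn1r-ps111 by -0.87 ± 0.52 (0.377). Without intra-abdominal array 2 these were -0.39 and -0.35, and without intra-abdominal array 3 they were -1.45 and -1.39. The pseudogene Vmn1r239-ps came next with -0.83 ± 0.50 (0.373), which was -0.44 without intra-abdominal array 1 and -1.38 without array 3. It measured 4.19, 3.49, 4.58 and 3.96 on the paracardial arrays and 5.68, 5.20 and 3.78 on the intra-abdominal arrays, where array 3 lay below 3 of the paracardial arrays.

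Leaving out intra-abdominal array 3 moved 2 of the 51 receptor genes past the threshold, in a fit that called 8.96% of all genes. Without it Taar8b differed by -1.06 ± 0.18 (SE, limma adjusted p = 0.024) and Tas2r118 by -1.09 ± 0.19 (0.027). Over all arrays their differences were -0.61 ± 0.37 (0.378) and -0.70 ± 0.33 (0.263). Within the higher-ceiling set, which has no replicates in either depot, Taar8b differed by 0.11 and Tas2r118 by -0.20. Neither gene exceeded the background limit on any array.

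Genes that carry chemosensory signals could be set against the same background, as far as they were measured. Of 24 listed genes of taste and tuft cell signalling 3 were measured and none was called (median difference -0.26). Alox5, a leukotriene enzyme of tuft cells and leukocytes, differed by -0.57 ± 0.19 (SE, limma adjusted p = 0.130) and was within the background limit on all 7 arrays. Gng13, the G protein gamma subunit of taste cells, was too, with 4.93 to 5.51. The proton channel gene Otop1, also known from brown fat, was above the limit on paracardial array 4 (6.36) and intra-abdominal array 3, the higher-ceiling set, and between 4.30 and 5.03 on the other 5 arrays.

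Of 26 listed vomeronasal signalling genes 2 were measured and none was called (median difference 0.41, over 2 genes of opposite sign). Gnai2, which is also broadly expressed outside the nose, was far above the limit on every array, with 13.24 to 16.16. Its difference was -0.45 ± 0.88 (SE, limma adjusted p = 0.802). H2-M2, a nonclassical MHC gene, measured 6.69, 6.49, 7.62 and 8.50 on the paracardial arrays and 6.48, 5.73 and 5.97 on the intra-abdominal arrays, a difference of 1.26 ± 0.52 (SE, limma adjusted p = 0.199). Of 16 genes listed for main olfactory signalling 3 were measured and none was called (median difference -0.02), with the largest difference for Ms4a1 (1.49 ± 0.63, SE, limma adjusted p = 0.209), which is better known as a B cell gene. Of 10 neuronal genes 2 were measured, of which 1 was higher in paracardial fat, none was lower and 1 did not pass. The higher one was the tubulin gene Tubb3 (1.00 ± 0.24, SE, limma adjusted p = 0.049). Its values, 4.60 to 5.32 against 4.03 to 4.26, exceeded the background limit on 1 array. Stmn2 went the other way (-0.38 ± 0.30, SE, limma adjusted p = 0.508) and exceeded the limit on 1 array, intra-abdominal array 3 (5.88).

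Enzymes that make or break down amines, among them trace amines, were listed beside their receptors. Of 11 listed genes 5 were measured, 3 were lower in paracardial fat, none was higher and 2 did not pass, with a median difference of -1.67. Aoc3, an amine oxidase of adipocytes and vessels, measured 5.56, 5.75, 8.57 and 8.67 on the paracardial arrays and 16.42, 16.46 and 16.73 on the intra-abdominal arrays (-9.40 ± 0.89, SE, limma adjusted p = 0.0082). Maob, a monoamine oxidase gene, measured 5.45, 5.57, 6.33 and 6.41 against 8.40, 8.91 and 10.05 (-3.18 ± 0.46, SE, limma adjusted p = 0.014). On paracardial arrays 1 and 2 both genes lay within the receptor background, and on the other 5 arrays both were above it. The adipocyte genes moved the same way on these arrays, and their part in this result was not tested.

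Set against the receptor background, the fat markers of paracardial arrays 1 and 2 were weak. Of 9 measured adipocyte genes 3 were above the limit on paracardial array 1 and 5 on paracardial array 2, while all 9 were above it on each of the other 5 arrays. With the 95th percentile of the olfactory receptors as the limit, the counts on paracardial arrays 1 and 2 were 7 and 5. Adipoq, the adipocyte hormone adiponectin, measured 5.18 and 5.53 on these arrays, within the background, then 9.92 and 9.73 on paracardial arrays 3 and 4 and 11.74, 12.71 and 13.45 on the intra-abdominal arrays. Lep, the hormone leptin, measured 6.30 and 5.56 on paracardial arrays 1 and 2, 6.67 and 9.26 on arrays 3 and 4, and 15.03, 14.95 and 16.45 on the intra-abdominal arrays. Fabp4, the adipocyte fatty acid binding protein, was above the limit on all 7 arrays, with 6.80 and 7.74 on paracardial arrays 1 and 2. Between the depots 7 of the 9 were lower in paracardial fat, none was higher and 2 did not pass, with a median difference of -7.19. The 2 largest called differences were those of Lep (-8.53 ± 0.91, SE, limma adjusted p = 0.0082) and the droplet coat gene Plin4 (-8.13 ± 0.81, 0.0082).

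**Figure D4:**
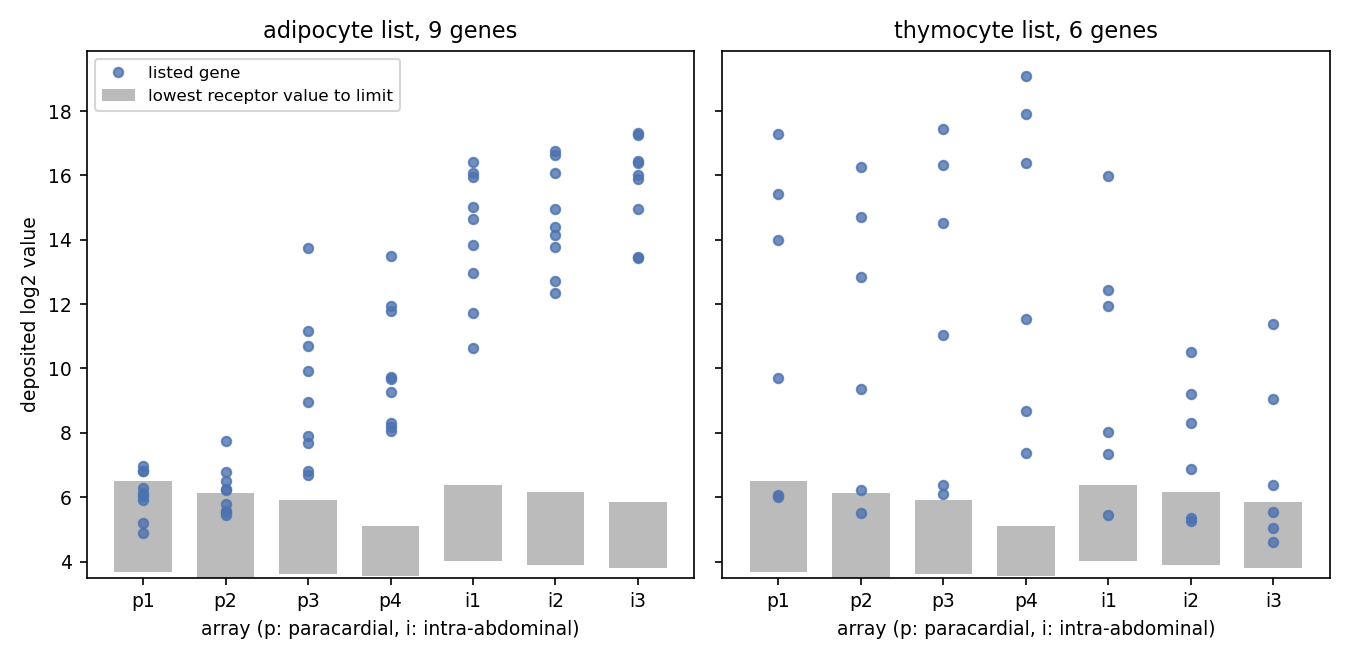
Deposited log2 values (y axis) of the 9 adipocyte and 6 thymocyte genes measured, by array (x axis), over grey bars that span the lowest receptor value to the background limit. On paracardial arrays 1 and 2 adipocyte genes fall inside the grey bars, 6 of 9 and 4 of 9, and on the other 5 arrays none does.

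Most thymocyte and thymic epithelial genes ran the other way against the same background. Of 6 measured thymocyte genes 4, 5, 6 and 6 were above the limit on the paracardial arrays in order, while the counts on the intra-abdominal arrays were 5, 4 and 3. Of these 6 genes 2 were higher in paracardial fat (Dntt by 7.05 and Rag2 by 4.65, limma adjusted p = 0.034 and 0.021), none was lower and 4 did not pass, among them Cd1d1 with a difference of -3.29. Rag2, a recombinase gene of developing lymphocytes, measured 9.71, 9.36, 11.04 and 11.55 on the paracardial arrays and 7.34, 5.36 and 4.59 on the intra-abdominal arrays, the last 2 within the background. Of 6 measured thymic epithelial genes 4 were higher and 2 did not pass, led by the keratins Krt18 (6.06 ± 0.82) and Krt8 (5.08 ± 0.59). Foxn1, the defining transcription factor of that epithelium, measured 5.30, 5.20, 5.70 and 6.80 against 4.94, 4.81 and 4.36 and exceeded the limit on 1 array. The 6 broadly expressed genes measured were above the limit on all 7 arrays, and 1 of them was called (Rplp0, a ribosomal protein gene, limma adjusted p = 0.033, with 12.35 to 12.99 against 10.62 to 11.61).

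The background also bears on the genes that the depot comparison called. Of the 270 genes lower in paracardial fat, 181 (67.0%) lay within the receptor background on paracardial array 1, 157 (58.1%) on array 2, 87 (32.2%) on array 3 and 32 (11.9%) on array 4. Of all genes 58.4%, 52.2%, 43.4% and 27.1% lay within it on the same arrays, so the share fell across these arrays among all genes too. On all 4 arrays it held 32 of the 270 (11.9%), against 25.2% of all genes. Of the 581 genes higher in paracardial fat, 147, 196 and 147 lay within it on intra-abdominal arrays 1 to 3 and 105 (18.1%) on all 3, against 40.3% of all genes. A gene within the background in the depot where it is lower has a difference that depends on the background level of those arrays. Among all 851 called genes, 11 lay within the background on all 7 arrays. Over all 9294 genes, 2131 (22.9%) lay within it on all 7 arrays and 3046 (32.8%) above it on all 7. With the 95th percentile of the olfactory receptors as the limit, these were 1585 (17.1%) and 3875 (41.7%). Under that limit the 105 higher genes became 71 and the 11 called genes 6, and with the highest receptor value of each array as the limit they became 63 and 5.

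**Figure D5:**
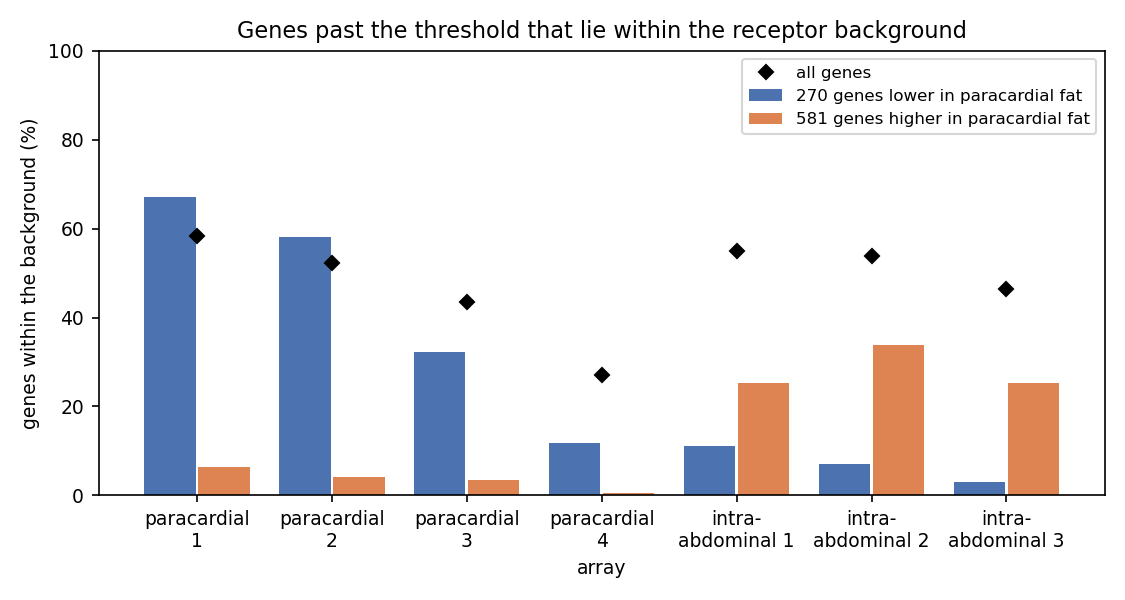
Share of the called genes (y axis, percent) that lie at or under the background limit on each array (x axis), for the 270 genes lower and the 581 genes higher in paracardial fat (bars) and for all genes (diamonds). The share of the lower genes is 67.0% and 58.1% on paracardial arrays 1 and 2 against 11.9% on paracardial array 4, that of all genes 58.4% and 52.2% against 27.1%, and that of the higher genes is 25.3% to 33.7% on the intra-abdominal arrays.

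Adh1, the alcohol dehydrogenase gene named in the study's title, was within the limit on paracardial arrays 1 and 2 and above it on the other 5 arrays. It measured 6.47, 5.28, 7.77 and 7.53 on the paracardial arrays and 10.52, 10.54 and 13.04 on the intra-abdominal arrays. On paracardial array 1 it was 0.05 under the limit of 6.51 and above the 95th percentile of the olfactory receptors, 5.81, so its place there depends on the limit used. Ucp1, the uncoupling protein of brown fat, was within the background on paracardial arrays 1 and 2 and on all 3 intra-abdominal arrays, with 4.36 to 4.99. It exceeded the limit on paracardial arrays 3 (6.14) and 4 (13.92).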

How the data were processed

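Expression was measured on Affymetrix microarrays. The authors deposited log2 values of each probe on each array. RMA and Affymetrix Expression Console are the tools named in the submitters' processing notes. The sources used here give no version, no build and no detail of any background correction. The log2 scale was taken from RMA and the range of the values, and the centring is unknown. Signal over scanner background is unknown, since no scanner file was analysed, and precision is limited by how many arrays there are.

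Of 11949 probes, 9352 had exactly 1 distinct symbol in the platform annotation, 522 several and 2075 none. A symbol listed repeatedly for a probe counted as 1, as for 36 of the 51 receptor probes. Symbols were updated through Entrez identifiers to RefSeq (GRCm38.p6), which changed 188 symbols but none of the 51. For 52 genes with several probes the brightest was kept, and no gene was filtered.

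Depots were compared with limma (version 3.58.1, R version 4.3.3), fitting lmFit and eBayes over all 9294 genes with Benjamini-Hochberg adjustment. A difference is the paracardial mean minus the intra-abdominal mean. The fit had 5 residual and 1.68 prior degrees of freedom. The background limit used a median absolute deviation scaled by 1.4826. Start-site windows were aligned globally with Biopython and compared by identical bases. Python 3.11.15 with pandas 2.3.3, scipy 1.17.1 and matplotlib 3.10.9 made the counts and figures, and the fit was tested on simulated data.

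Members, gene lists and tests were chosen with earlier results of these data known. The rule named receptor genes past the threshold, those above background on all arrays of a depot, the highest and lowest of each family by mean, the 3 largest differences in each direction, and probes that share all 7 values. From each list it named up to 2 genes past the threshold or the 1 largest otherwise, besides Adh1 and Ucp1. All other genes were named after their values were seen. Alternatives covered normalization, filters, limits, weights, blocks and arrays left out.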

Additional observations from a re-analysis of the deposited data

Results flagged for a closer look

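In the paracardial group of 4 arrays, 2 of the 51 receptor genes had an array far from the others (Dixon's test), and chance flags about 1 in 20 groups. Vmn1r-ps12, a pseudogene, measured 3.92 on paracardial array 4 against 4.94, 4.88 and 4.78 on arrays 1 to 3. Vmn1r21, a V1R gene, measured 5.07 on paracardial array 2 against 4.29, 4.32 and 4.26 on arrays 1, 3 and 4. Both stayed within the background limit.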

How the results depend on the processing

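No receptor gene was above background on all arrays of either depot with any other limit tried, after quantile normalization or with an array left out. The count of 0 receptor genes past the threshold became 13 with limma array weights (1 higher and 12 lower, 38.9% of all genes called, weights of 0.17 to 5.94, fit not converged), 2 without intra-abdominal array 3 (0 to 2 over the 7 fits that left out an array) and 2 with only the 5 lower-ceiling arrays, which was added once the values were known. Over all genes 851 became 3614 with array weights, 1654 with the array set as a block and 185 to 833 with an array left out, among them 196, 338 and 394 without paracardial arrays 1, 2 and 3 and 185 without intra-abdominal array 2. The split of 581 higher and 270 lower genes was 432 and 416 after quantile normalization was applied again and 512 and 530 after cyclic loess. The median receptor difference was -0.80 with the dimmest 25% of genes dropped, over the 4 receptor genes left, while dropping 50% left none. It was -0.29 to -0.07 with an array left out and stayed negative in every fit. With the replicate block 0 genes passed (the median receptor difference was -0.07). No intra-abdominal array is numbered 4, so paracardial array 4 did not enter the depot differences of that fit. Whether the replicate numbers pair the arrays is unknown, since the labels do not say. Same-numbered deviations from the depot means correlated at 0.048, 0.047 and -0.50, which cannot decide it with so few arrays per depot. For Taar7d, whose difference was near 0, the sign turned with cyclic loess (0.045), array weights (0.39), the replicate block (0.15) and the 5 lower-ceiling arrays (0.093), and it ran from -0.16 to 0.15 with an array left out. For Vmn2r-ps12 it turned with array weights (0.075) and the replicate block (0.018), and ran from -0.21 to 0.018 with an array left out. For Vmn1r25 it ran from -0.0039 to 0.46 with an array left out. Causes were not tested.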
